A study of Mus musculus with 8 samples.

Results

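Pericytes are mural cells, which wrap the capillaries and lie in the basement membrane they share with the endothelium. Endothelial cells recruit them with the growth factor PDGF-B, which binds the receptor PDGFR-beta on the pericyte. No single gene marks pericytes alone, so they are usually recognised by a set of genes for surface receptors, ion channel subunits, a regulator of G protein signalling and small mitochondrial proteins. The 8 genes described here are such a set: Pdgfrb, Cspg4, Anpep, Mcam, Rgs5, Abcc9, Higd1b and Ndufa4l2. They were chosen by name as pericyte markers and found by Entrez identifier among the 27164 genes of the deposited tables. All 8 were found and all 8 passed the filter on low counts, as did 16526 genes in all.

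The libraries came from sorted mammary basal cells, which form the contractile outer sheath of the ducts, of untreated 10-week-old female C57BL/6 mice. All of the mice carried Lgr5-GFP-IRES-CreERT2, an allele that puts green fluorescent protein under the control of the Lgr5 locus, so the cells of every group share it. The 4 populations were defined by Lgr5, a receptor for R-spondins, and Tspan8 (T8), a tetraspanin of the cell membrane: double-positive (Lgr5+T8hi), positive for Tspan8 alone (Lgr5-T8hi), positive for Lgr5 alone (Lgr5+T8-) and double-negative (Lgr5-T8-). Each population had 2 libraries, 1 in each of 2 batches that the labels name without saying what the batch was. Whether different libraries came from separate mice, or from pools of mice, is not stated, so a p-value measures the spread between samples alone, and that spread may be technical.

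Library totals were 24571300 to 38384875 counts, and a count of 0 would allow a level of up to 0.0799 to 0.12 CPM (counts per 1000000 counts, scaled by the trimmed mean of M-values), for counting error only. Tspan8 checked the sort, with 150 to 289 CPM in the T8hi libraries and 3.16 to 10.6 CPM in the T8- libraries. Lgr5 was at 174 to 193 CPM in Lgr5+T8hi, 119 to 129 among Lgr5-T8hi, 185 to 212 among Lgr5+T8- and 50.5 to 58.3 among Lgr5-T8-. The Lgr5 classes were thus further apart in Lgr5 transcript among T8- than among T8hi cells. The 10 basal epithelial markers summed to between 15800 and 23400 CPM in a library, and the 8 pericyte markers to between 273 and 442 CPM, with Mcam as the largest term in each. All 8 pericyte markers had counts in all 8 libraries. In these bulk samples, fewer cells of a type and less RNA per cell cannot be told apart.

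The pericyte markers did not form 1 pattern. On the mean of both Lgr5 classes, Pdgfrb, Rgs5, Abcc9 and Ndufa4l2 were higher in T8hi than in T8- cells, by 1.35-fold for Pdgfrb to 2.4-fold for Abcc9. Among Lgr5- cells alone 0 of the 8 markers were called, where 3.70% of tested genes were called higher and 3.36% lower. The log2 differences there were 0.15 for Pdgfrb, 0.39 for Rgs5, 0.6 for Abcc9 and -0.01 for Ndufa4l2. Without the batch block the calls of Pdgfrb, Rgs5 and Ndufa4l2 were lost, and that of Abcc9 was kept. Higd1b was also called higher, but it passed the filter on low counts mainly through the T8hi libraries. Its call was lost with DESeq2, without the batch block and in most fits that left out a library. Mcam was 1.46-fold higher in Lgr5+ than in Lgr5- cells, and Cspg4 and Anpep were lower there, at 0.64 and 0.629 of the Lgr5- level. These Lgr5 calls were lost without the batch block. Both Lgr5+T8- libraries were below the other 6 libraries for 6 of the markers, all but Rgs5 and Mcam, against 5.52% of tested genes. This split was chosen after the values were seen.

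**Figure D1:**
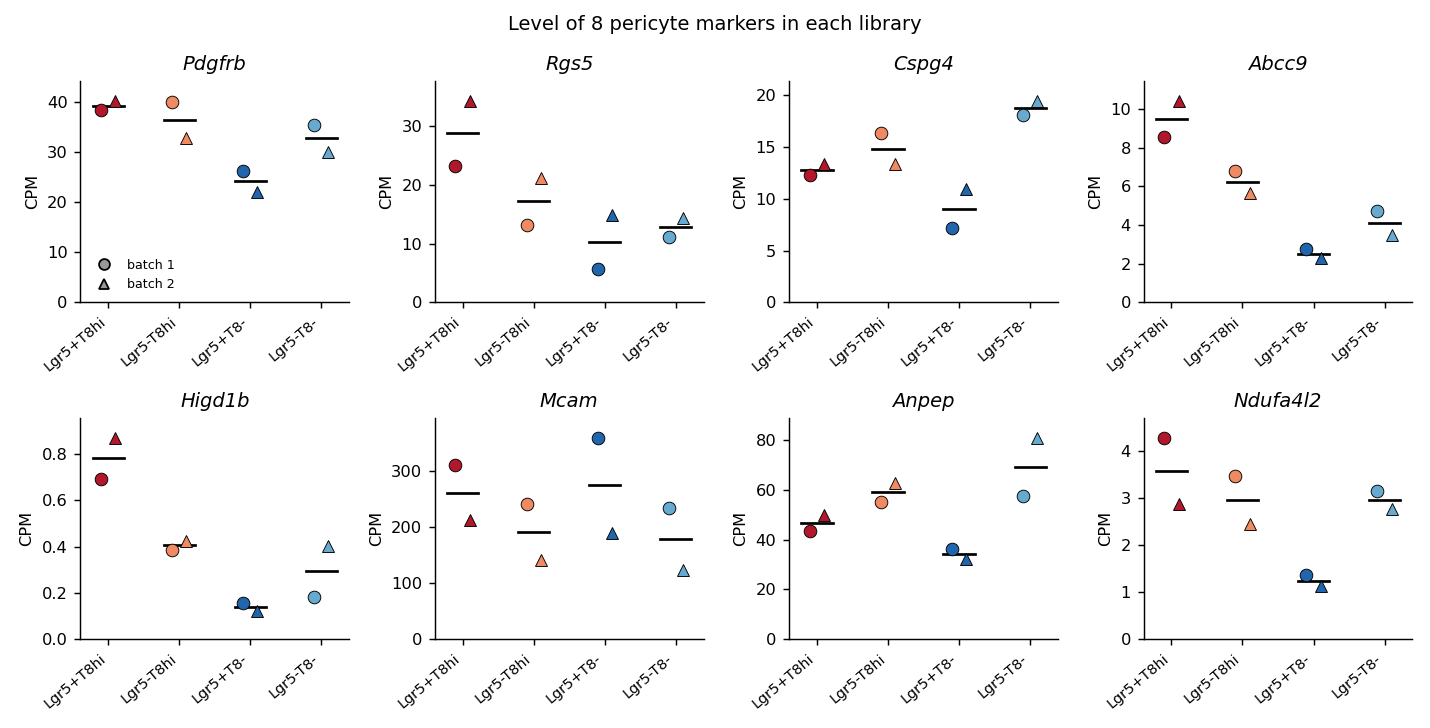
CPM of the 8 pericyte markers in each of the 8 libraries, 1 panel per gene with its own axis from 0; points are libraries by batch, and the horizontal marks are the means of the 2 libraries of a population. Abcc9 lies between 2.27 and 2.74 CPM in Lgr5+T8- and between 8.53 and 10.4 CPM in Lgr5+T8hi, while the Mcam values part by batch in every population.

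Per length of gene the markers spanned a wide range of levels. Mean RPKM (reads per kilobase of gene per 1000000 counts) over the 8 libraries was 78.5 for Mcam, 15.3 for Anpep, 9.54 for Rgs5, 6.13 for Pdgfrb, 2.78 for Ndufa4l2, 1.72 for Cspg4, 0.74 for Abcc9 and 0.55 for Higd1b. Mcam stood at percentile 94.4 of the tested genes on this scale, Pdgfrb at percentile 51.1 and Higd1b at percentile 15.6.

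For the Tspan8 comparison, the mean of the 2 T8hi populations was set against that of the 2 T8- populations. With edgeR's quasi-likelihood test and Benjamini-Hochberg adjustment over all tested genes at a threshold of 0.05, 5 of the 8 markers were higher in T8hi cells. The count was 4, without Higd1b, with DESeq2 and under a filter of 1 CPM in 4 libraries. Of all tested genes, 9.13% were called higher and 5.52% lower. The median log2 fold change of the markers was 0.59, against -0.02 for all tested genes. For the Lgr5 comparison, built likewise, 1 marker was called higher and 2 lower, against 4.23% and 4.86% of all tested genes, with a median of -0.11 against 0.01. These calls rest on the model with batch as a block. Without the block, edgeR called 1 marker (Abcc9) for Tspan8 and 0 for Lgr5. For Lgr5, 2 markers then had an unadjusted p under 0.05, as had 1752 of the 16526 tested genes.

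**Figure D2:**
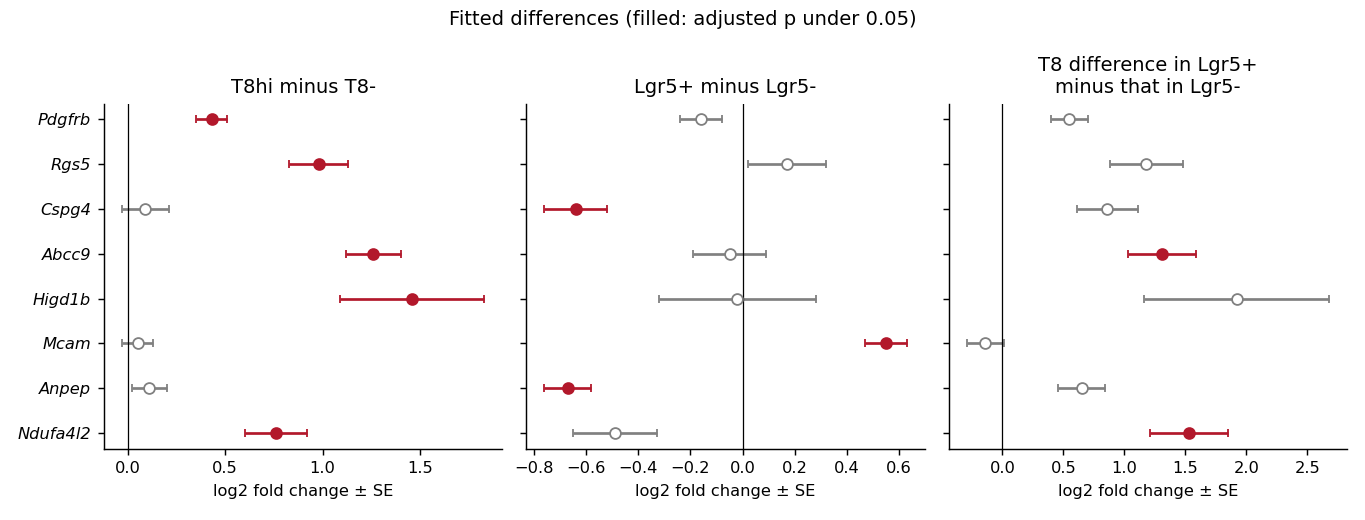
Log2 fold change of each pericyte marker for the Tspan8 comparison (T8hi over T8-), the Lgr5 comparison (Lgr5+ over Lgr5-) and their interaction, with bars of 1 standard error from edgeR; filled points passed an adjusted p of 0.05. The 5 filled points of the Tspan8 panel lie right of 0, and for Lgr5 Mcam lies to the right and Cspg4 and Anpep to the left.

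Among the receptors and surface proteins, Pdgfrb encodes the tyrosine kinase receptor for PDGF-B and lies on chromosome 18 (GRCm38.p6, 61045127 to 61085067, Entrez 18596). It was at 38.4 and 40.2 CPM in Lgr5+T8hi, 40 and 32.9 among Lgr5-T8hi, 26.2 and 22.1 among Lgr5+T8-, and 35.4 and 30.1 among Lgr5-T8-. Both Lgr5+T8- libraries were below all the others, while the T8hi and Lgr5-T8- libraries overlapped. The log2 fold change for Tspan8 was 0.43 ± 0.08 (SE, adjusted p 0.00225, edgeR), and for Lgr5 it was -0.16 ± 0.08 (adjusted p 0.236). Without the replicate block the Tspan8 call was lost (adjusted p 0.0813, edgeR). In the order of the 4 means, 39.3 ± 1.32 CPM in Lgr5+T8hi, 36.5 ± 5.02 among Lgr5-T8hi, 32.8 ± 3.75 among Lgr5-T8- and 24.2 ± 2.91 among Lgr5+T8- (SD, n = 2), only the last step passed the edgeR test (adjusted p 0.0257), and it was lost without the replicate block, without either Lgr5+T8- library and without Lgr5-T8- replicate 1.

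Cspg4 encodes NG2, a chondroitin sulfate proteoglycan of the pericyte surface (chromosome 9, 56865104 to 56899870, Entrez 121021). Its levels were 12.3 and 13.3 CPM in Lgr5+T8hi, 16.3 and 13.3 among Lgr5-T8hi, 7.15 and 10.9 among Lgr5+T8-, and 18.1 and 19.4 among Lgr5-T8-. The Lgr5-T8- libraries were the highest of the 8 and the Lgr5+T8- libraries the lowest. Cspg4 was lower in Lgr5+ cells, with a log2 fold change of -0.64 ± 0.12 (adjusted p 0.00883, edgeR). This call was lost without the replicate block (adjusted p 0.126, edgeR). It was also lost without Lgr5+T8hi replicate 1 or replicate 2, where the log2 fold change stayed at -0.64. For Tspan8 the difference was 0.09 ± 0.12 (adjusted p 0.696, edgeR), with a 95% interval of -0.18 to 0.37. No neighbouring pair in the order of the 4 means passed the edgeR test, with adjusted p-values of 0.329, 0.718 and 0.118 from the highest down.

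Anpep encodes aminopeptidase N (CD13), a membrane peptidase found on pericytes and also on fibroblasts and some epithelia (chromosome 7, 79821803 to 79848210, Entrez 16790). Its levels were 43.4 and 49.8 CPM in Lgr5+T8hi, 55.2 and 63 among Lgr5-T8hi, 36.3 and 32.1 among Lgr5+T8-, and 57.6 and 81 among Lgr5-T8-. All 4 Lgr5+ libraries were below all 4 Lgr5- libraries. Anpep was the 1 marker of which this held, and 2.21% of tested genes showed the same lack of overlap in that direction. On the log2 scale the fold change for Lgr5 was -0.67 ± 0.09 (adjusted p 0.0013, edgeR), and that for Tspan8 was 0.11 ± 0.09 (adjusted p 0.522), with a 95% interval of -0.1 to 0.31. Without the replicate block the Lgr5 call was lost (adjusted p 0.0523, edgeR). The means ran from 69.3 ± 16.6 CPM in Lgr5-T8- through 59.1 ± 5.52 and 46.6 ± 4.51 to 34.2 ± 3.01 in Lgr5+T8- (SD, n = 2), with no step between neighbours past the threshold (edgeR adjusted p 0.417, 0.259 and 0.0773).

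Mcam encodes CD146, an adhesion molecule of the immunoglobulin superfamily made by pericytes, smooth muscle and endothelium (chromosome 9, 44134658 to 44142727, Entrez 84004). It was by far the most abundant marker, at 311 and 213 CPM in Lgr5+T8hi, 242 and 142 among Lgr5-T8hi, 360 and 190 among Lgr5+T8-, and 234 and 124 among Lgr5-T8-. The first value of each pair is from batch 1 and is the higher in every population, and the means were 287 CPM in batch 1 and 167 CPM in batch 2 (adjusted p 5.35e-05 for batch, edgeR). Within each batch both Lgr5+ libraries were above both Lgr5- libraries. The log2 fold change for Lgr5 was 0.55 ± 0.08 (adjusted p 0.000727, edgeR), being 0.49 in batch 1 and 0.6 in batch 2. Without the replicate block the Lgr5 difference was 0.53 ± 0.3 and its call was lost (adjusted p 0.625, edgeR). For Tspan8 the log2 fold change was 0.05 ± 0.08 (adjusted p 0.742, edgeR), with a 95% interval of -0.12 to 0.22. Of the steps between neighbouring means, 275 ± 120 CPM in Lgr5+T8-, 262 ± 69.3 in Lgr5+T8hi, 192 ± 71 in Lgr5-T8hi and 179 ± 77.7 in Lgr5-T8- (SD, n = 2), the one between the Lgr5+ and Lgr5- populations passed (adjusted p 0.0345, edgeR). That call was lost without the replicate block and without any 1 of the 4 T8hi libraries.

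Among the signalling and channel genes, Rgs5 encodes a regulator that speeds the shut-off of G protein signals and is a widely used pericyte marker (chromosome 1, 169655501 to 169695813, Entrez 19737). It was at 23.3 and 34.3 CPM in Lgr5+T8hi, 13.2 and 21.2 among Lgr5-T8hi, 5.61 and 14.9 among Lgr5+T8-, and 11.2 and 14.4 among Lgr5-T8-. Both Lgr5+T8hi libraries were above the other 6, and the second library of each pair was the higher, with batch means of 13.3 and 21.2 CPM (adjusted p 0.00716 for batch, edgeR). On the log2 scale the fold change for Tspan8 was 0.98 ± 0.15 (adjusted p 0.0029, edgeR), being 1.14 in batch 1 and 0.88 in batch 2. Without the replicate block the Tspan8 call was lost (adjusted p 0.154, edgeR). For Lgr5 the log2 fold change was 0.17 ± 0.15 (adjusted p 0.568, edgeR), and without Lgr5+T8- replicate 2 it was -0.08. No step in the order of the means, 28.8 ± 7.76, 17.2 ± 5.61, 12.8 ± 2.23 and 10.3 ± 6.58 CPM (SD, n = 2) from Lgr5+T8hi through Lgr5-T8hi and Lgr5-T8- to Lgr5+T8-, passed the edgeR test (adjusted p 0.101, 0.376 and 0.304). DESeq2 and limma-voom called the step between Lgr5+T8hi and Lgr5-T8hi.

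Abcc9 encodes SUR2, the regulatory subunit of an ATP-sensitive potassium channel (chromosome 6, 142587862 to 142702766, Entrez 20928). It was at 8.53 and 10.4 CPM in Lgr5+T8hi, 6.81 and 5.67 among Lgr5-T8hi, 2.74 and 2.27 among Lgr5+T8-, and 4.7 and 3.49 among Lgr5-T8-. All 4 T8hi libraries were above all 4 T8- libraries. Abcc9 was the 1 marker without overlap here, and 4.08% of tested genes did the same in that direction. The log2 fold change for Tspan8 was 1.26 ± 0.14 (adjusted p 0.000103, edgeR), a 2.4-fold difference, and the call held in every alternative fit that was run. For Lgr5 the difference was -0.05 ± 0.14 (adjusted p 0.879, edgeR), with a 95% interval of -0.36 to 0.26. Each step of the order Lgr5+T8hi (9.47 ± 1.32 CPM), Lgr5-T8hi (6.24 ± 0.805), Lgr5-T8- (4.09 ± 0.853) and Lgr5+T8- (2.51 ± 0.331; SD, n = 2) missed the threshold (edgeR adjusted p 0.116, 0.0954 and 0.0673).

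Kcnj8 encodes Kir6.1, the pore subunit that pairs with SUR2, and lies 16247 bases from Abcc9 on the same strand of chromosome 6. It was at 2.13 to 2.76 CPM in Lgr5+T8hi, 0.934 to 1.6 among Lgr5-T8hi, 0.718 to 0.787 among Lgr5+T8- and 0.772 to 0.909 among Lgr5-T8-. The T8hi and T8- libraries of Kcnj8 did not overlap, and its log2 fold change for Tspan8 was 1.11 ± 0.23 (adjusted p 0.0065, edgeR). The 250 bases before the annotated start are given below for Kcnj8 and Rgs5, which were higher in T8hi cells, and for Mcam, which was not, for contrast. The sequences are from RefSeq on GRCm38.p6, 5′ to 3′ on the gene's strand, at chr6:142571615-142571864 (minus) for Kcnj8, chr1:169655251-169655500 (plus) for Rgs5 and chr9:44134408-44134657 (plus) for Mcam. Each window ends where the gene's annotated span begins. The entry for Abcc9 lies inside that gene's span and is not shown.
Kcnj8: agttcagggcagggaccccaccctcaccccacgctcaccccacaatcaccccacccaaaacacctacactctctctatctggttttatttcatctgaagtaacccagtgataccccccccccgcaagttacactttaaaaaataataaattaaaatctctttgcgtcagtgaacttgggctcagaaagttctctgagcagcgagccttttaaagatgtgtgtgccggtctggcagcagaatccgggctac
Rgs5: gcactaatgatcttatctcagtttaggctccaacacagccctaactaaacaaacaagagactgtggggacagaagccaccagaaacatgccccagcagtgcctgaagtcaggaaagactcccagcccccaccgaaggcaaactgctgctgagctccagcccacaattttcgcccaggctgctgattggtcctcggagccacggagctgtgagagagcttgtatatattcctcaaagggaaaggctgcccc
Mcam: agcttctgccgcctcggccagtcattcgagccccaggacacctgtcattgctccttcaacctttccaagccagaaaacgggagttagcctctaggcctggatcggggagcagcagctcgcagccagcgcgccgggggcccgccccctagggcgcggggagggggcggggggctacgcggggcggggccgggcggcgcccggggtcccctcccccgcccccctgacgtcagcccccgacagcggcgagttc

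GC content was 49.2% for Kcnj8, 53.6% for Rgs5 and 73.6% for Mcam. Both strands were searched for TGGGAA (RBPJ, the DNA-binding partner of Notch), CATTCC (TEAD), ACGTG (hypoxia-inducible factors), the CArG box of serum response factor and the MEF2 motif. These occurred in 21.6%, 12.6%, 16.6%, 1.47% and 2.92% of 32851 RefSeq promoters cut to the same 250 bases. Of the 8 pericyte markers 5 had an entry and 4 of these lay outside the gene's span, and neither these 4 nor Kcnj8 held a match, so no letters are in capitals. The absence of a match says only that the letters are not in this window.

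The last pair are small mitochondrial proteins. Higd1b belongs to a family of hypoxia-induced inner membrane proteins (chromosome 11, 102835761 to 102844141, Entrez 75689). It was barely detected, with 24 and 23 counts in Lgr5+T8hi, 14 and 16 among Lgr5-T8hi, 5 and 3 among Lgr5+T8-, and 6 and 11 among Lgr5-T8-, or 0.12 to 0.87 CPM. Both Lgr5+T8hi libraries were above the other 6 and both Lgr5+T8- libraries were below. Higd1b reached the filter's minimum of 0.292 CPM in 5 libraries, all 4 T8hi libraries among them, so it passed the filter largely through the group where it was high. On the log2 scale the fold change for Tspan8 was 1.46 ± 0.37 (adjusted p 0.0199, edgeR). That call was lost with DESeq2 (adjusted p 0.0939), under a filter of 1 CPM in 4 libraries, which Higd1b did not pass, without the replicate block (edgeR adjusted p 0.0679), and on leaving out any 1 library other than Lgr5+T8- replicate 1 or Lgr5-T8- replicate 2. Higd1b also overlaps 5670 bases of Eftud2, a splicing factor gene at 61.7 to 97.7 CPM, and the sources used here do not give the strand setting of the counting. Its means from Lgr5+T8hi down, 0.781 ± 0.126, 0.405 ± 0.0294, 0.293 ± 0.157 and 0.139 ± 0.0268 CPM (SD, n = 2), followed the population order of Abcc9, with no step past the threshold (edgeR adjusted p 0.366, 0.66 and 0.4).

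Ndufa4l2 encodes a relative of the respiratory chain subunit NDUFA4 and is a known target of hypoxia-inducible factor (chromosome 10, 127509274 to 127517154, Entrez 407790). It was at 4.27 and 2.87 CPM in Lgr5+T8hi, 3.46 and 2.45 among Lgr5-T8hi, 1.35 and 1.12 among Lgr5+T8-, and 3.15 and 2.76 among Lgr5-T8-. The 2 Lgr5+T8- libraries were below the other 6, which overlapped one another. The log2 fold change for Tspan8 was 0.76 ± 0.16 (adjusted p 0.00635, edgeR) and that for Lgr5 was -0.49 ± 0.16 (adjusted p 0.0773). Without the replicate block the Tspan8 call was lost (adjusted p 0.101, edgeR). In the order 3.57 ± 0.985 CPM in Lgr5+T8hi, 2.95 ± 0.714 among Lgr5-T8hi, 2.95 ± 0.28 among Lgr5-T8- and 1.24 ± 0.168 among Lgr5+T8- (SD, n = 2), the step to Lgr5+T8- was the one that passed (adjusted p 0.00562, edgeR), and it was lost without the replicate block or Lgr5+T8- replicate 1. Ndufa4l2 overlaps Shmt2 by 32 bases.

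The Tspan8 difference was then taken within each Lgr5 class. Among Lgr5+ cells, 5 of 8 markers were higher in Lgr5+T8hi than in Lgr5+T8- (7.27% of tested genes were called higher, 2.17% lower): Pdgfrb by 0.71 ± 0.11 on the log2 scale, Rgs5 by 1.58 ± 0.21, Abcc9 by 1.92 ± 0.21, Higd1b by 2.42 ± 0.54 and Ndufa4l2 by 1.52 ± 0.23 (SE, adjusted p 0.000128 to 0.0139, edgeR). As fold changes these were 1.63, 2.98, 3.78, 5.35 and 2.88. Higd1b passed the filter on low counts largely through the T8hi libraries, where it was high. It had 5 and 3 counts in Lgr5+T8-, or 0.157 and 0.12 CPM, where a count of 0 would allow up to 0.0945 and 0.12 CPM. Under the filter of 1 CPM in 4 libraries, which Higd1b did not pass, 4 markers were called. The Higd1b call was lost with DESeq2, under the filter of 1 CPM, and without either Lgr5+T8hi library or Lgr5+T8- replicate 2. Without the replicate block 2 of the calls were kept, those of Abcc9 and Ndufa4l2. Cspg4 at 0.52 ± 0.18 and Anpep at 0.43 ± 0.13 did not pass (adjusted p 0.118 and 0.0773, edgeR). The median over the markers was 1.12, against -0.05 for all tested genes.

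Among Lgr5- cells, edgeR called 0 of 8 markers between Lgr5-T8hi and Lgr5-T8-, where 3.70% of tested genes were called higher and 3.36% lower. A single marker had an unadjusted p under 0.05, namely Abcc9, at 0.6 ± 0.2 on the log2 scale (SE, adjusted p 0.0954, edgeR). Of the 16526 tested genes, 3141 had an unadjusted p under 0.05. DESeq2 and limma-voom also called 0, with 1 and 3 markers at an unadjusted p under 0.05, against 2377 and 3232 of all tested genes. The median was 0.14, against -0.01 for all tested genes.

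**Figure D3:**
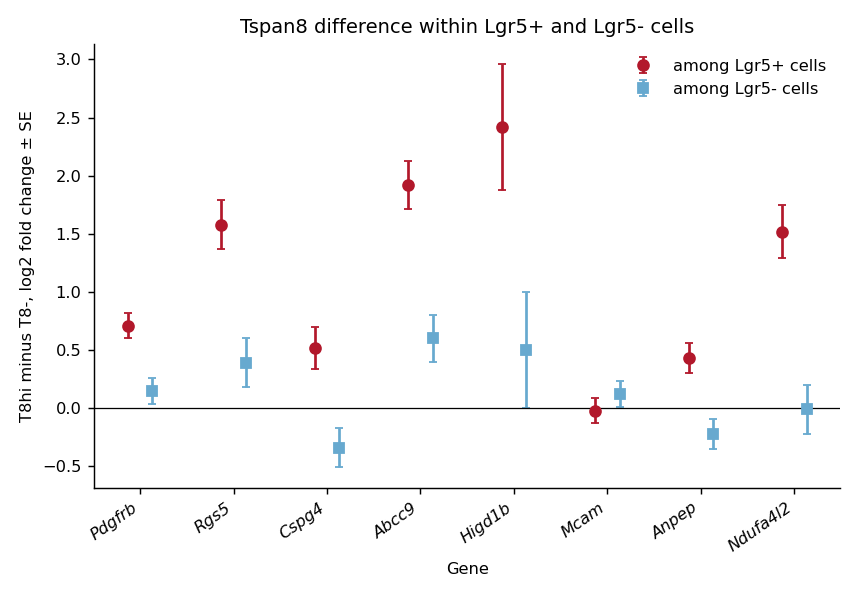
Log2 fold change of T8hi over T8- (vertical axis) for the 8 pericyte markers, with circles for Lgr5+ cells, squares for Lgr5- cells and bars of 1 standard error from edgeR. The circle lies above the square for 7 markers, with Ndufa4l2 at 1.52 against -0.01 and Abcc9 at 1.92 against 0.6, and just below it for Mcam.

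The interaction tests whether these differences differ. It passed for 2 of 8 markers, Abcc9 at 1.31 ± 0.28 (SE, adjusted p 0.0334, edgeR) and Ndufa4l2 at 1.53 ± 0.32 (adjusted p 0.0266, edgeR), where 2.18% of tested genes were called in that direction and 0.363% in the other. The other differences were 1.92 ± 0.76 for Higd1b (adjusted p 0.32, edgeR), 1.18 ± 0.3 for Rgs5 (0.103), 0.86 ± 0.25 for Cspg4 (0.133), 0.65 ± 0.19 for Anpep (0.128), 0.55 ± 0.15 for Pdgfrb (0.0932) and -0.14 ± 0.15 for Mcam (0.822). In all, 7 of the 8 had an unadjusted p under 0.05, as had 1950 of the 16526 tested genes in either direction. Rgs5 passed with DESeq2 (adjusted p 0.00426) and limma-voom (adjusted p 0.0434). The Abcc9 call was lost on leaving out Lgr5+T8hi replicate 2 (adjusted p 0.221, edgeR), either Lgr5-T8hi library (0.0756 and 0.0978), either Lgr5+T8- library (0.0713 and 0.136) or Lgr5-T8- replicate 1 (0.1). The Ndufa4l2 call was lost on leaving out any 1 library of the Lgr5+T8hi, Lgr5-T8hi or Lgr5+T8- populations (adjusted p 0.0736 to 0.164, edgeR). In some of these fits other markers passed: Cspg4 without Lgr5-T8hi replicate 1, Cspg4 and Rgs5 without Lgr5+T8- replicate 2, and Anpep without Lgr5+T8- replicate 1 or Lgr5-T8- replicate 1 (adjusted p 0.00571 to 0.0398, edgeR). Without the replicate block edgeR called 0 of the 8, of which 6 had an unadjusted p under 0.05, as had 960 of the 16526 tested genes.

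The Lgr5 difference was likewise taken within each Tspan8 class. Among T8- cells, Pdgfrb (-0.44 ± 0.11), Cspg4 (-1.07 ± 0.18), Anpep (-1 ± 0.13) and Ndufa4l2 (-1.26 ± 0.24) were lower in Lgr5+T8- than in Lgr5-T8- on the log2 scale, and Mcam was higher (0.62 ± 0.11; SE, adjusted p 0.00116 to 0.0257, edgeR). Of tested genes, 5.05% were called lower and 3.81% higher there. Without Lgr5+T8- replicate 1 the number of markers called fell from 5 to 2, and without the replicate block to 1 (Anpep). Among T8hi cells, Mcam was the 1 marker called, higher by 0.48 ± 0.11 in Lgr5+T8hi than in Lgr5-T8hi (adjusted p 0.0345, edgeR; 2.29% of tested genes were called higher and 1.05% lower). Both Lgr5+T8- libraries were below the other 6 for 6 markers, all but Rgs5 and Mcam, against 5.52% of tested genes, a split chosen after the values were seen. Both Lgr5+T8hi libraries were above the other 6 for Rgs5, Abcc9 and Higd1b, against 8.51% of tested genes, a split also chosen after the values were seen. Higd1b passed the filter on low counts largely through the T8hi libraries, where it was high.

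The last pairs compare populations that differ in both markers. Between Lgr5+T8hi and Lgr5-T8-, 4 markers were higher in the double-positive cells, namely Rgs5 (1.15 ± 0.21), Abcc9 (1.21 ± 0.19), Higd1b (1.44 ± 0.47) and Mcam (0.6 ± 0.11 on the log2 scale), and Cspg4 (-0.55 ± 0.17) and Anpep (-0.56 ± 0.13) were lower (SE, adjusted p 0.000973 to 0.0492, edgeR). Here 11.1% of tested genes were called higher and 8.77% lower, and the markers called fell from 6 to 3 without Lgr5+T8hi replicate 1, to 2 without its replicate 2 and to 1 (Abcc9) without the replicate block. The Higd1b call (adjusted p 0.0492, edgeR) was also lost with RLE normalization, no count filter, the filter of 1 CPM and DESeq2, and that of Cspg4 (adjusted p 0.0483, edgeR) with library totals and the filter of 1 CPM. Between Lgr5-T8hi and Lgr5+T8-, Pdgfrb (0.59 ± 0.11), Cspg4 (0.74 ± 0.18), Abcc9 (1.31 ± 0.21), Anpep (0.77 ± 0.13) and Ndufa4l2 (1.25 ± 0.23) were higher in Lgr5-T8hi and Mcam (-0.5 ± 0.11) was lower (adjusted p 0.00358 to 0.0478, edgeR). That compares with 3.39% and 0.902% of tested genes, and the markers called fell from 6 to 2 on leaving out Lgr5-T8hi replicate 1 or Lgr5+T8- replicate 2. Leaving out the first Lgr5+T8- library gave 3, and edgeR without the replicate block gave 0, where 6 had an unadjusted p under 0.05. The Cspg4 call (adjusted p 0.0478, edgeR) was also lost under the filter of 1 CPM, on leaving out either Lgr5+T8hi library and without Lgr5-T8- replicate 2. DESeq2 and limma-voom each called 7, adding Rgs5. Without the block, 1261 of the 16526 tested genes had an unadjusted p under 0.05 between Lgr5-T8hi and Lgr5+T8-. These pairs share libraries with the comparisons above.

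How the markers moved together was described by Pearson's r of log2 CPM over the 8 libraries, which share batches and populations. Pdgfrb was closest to Abcc9 (0.94) and Ndufa4l2 (0.918), Abcc9 to Higd1b was 0.888, and Cspg4 to Anpep was 0.812. Mcam ran against Anpep (-0.656) and Cspg4 (-0.6). With each marker centred, the mean of the 8 was 0.44 and 0.49 in Lgr5+T8hi, 0.22 and 0.08 among Lgr5-T8hi, -0.61 and -0.63 among Lgr5+T8-, and 0 and 0.01 among Lgr5-T8- on the log2 scale. Among the 10 genes most like this mean, of 12982 compared, were Enpep (0.988), Meis2 (0.987), Cfb (0.981), Acsbg1 (0.981), Prex2 (0.98), Npnt (0.979), Col3a1 (0.974), Sgip1 (0.971) and Npy1r (0.97), and 108 genes had an r over 0.9. Enpep encodes aminopeptidase A, a pericyte surface enzyme, and Col3a1 a fibrillar collagen made by fibroblasts. The genes nearest to single markers were Cped1 to Abcc9 (0.997) and Cnr1 to Mcam (0.993).

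Other genes of mural cells were taken from a list of 22, of which 21 were tested. This list, like the others, was chosen with earlier results of these data known. For Tspan8, 13 were higher and 1 lower in T8hi cells, against 9.13% and 5.52% of all tested genes, with a median of 0.79. Notch3, the receptor that maintains mural cells, had means of 62 ± 4.56 CPM in Lgr5+T8hi, 58.6 ± 11.4 among Lgr5-T8hi, 18 ± 0.228 among Lgr5+T8- and 46.2 ± 8.23 among Lgr5-T8- (SD, n = 2), with a Tspan8 log2 fold change of 1.06 ± 0.09 (adjusted p 3.84e-05, edgeR). Vtn, the matrix protein vitronectin, differed by 1.59 ± 0.16 (adjusted p 4.08e-05, edgeR) and Ebf1, a transcription factor, by 1.48 ± 0.15 (adjusted p 4.24e-05, edgeR). The 1 gene that was lower was Tbx2, a T-box repressor, at 5.73 ± 0.134, 9.56 ± 1.01, 9.44 ± 0.998 and 33.8 ± 0.803 CPM in the same order (-1.27 ± 0.09, adjusted p 2.82e-06, edgeR).

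Within the Lgr5 classes the mural list was called higher for 14 genes and lower for 1 between Lgr5+T8hi and Lgr5+T8-, with a median of 1.34. Of all tested genes, 7.27% were called higher and 2.17% lower there. Between Lgr5-T8hi and Lgr5-T8- the counts were 1 higher and 2 lower, against 3.70% and 3.36% of all tested genes, with a median of 0.28. The interaction passed for 7 of the 21, all in the direction of Abcc9, against 2.18% of all tested genes, with a median of 1.11. For Lgr5, edgeR called 0 higher (1 at an unadjusted p under 0.05) and 8 lower, against 4.23% and 4.86% of all tested genes. In either direction, 3685 of the 16526 tested genes had an unadjusted p under 0.05 for Lgr5.

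**Figure D4:**
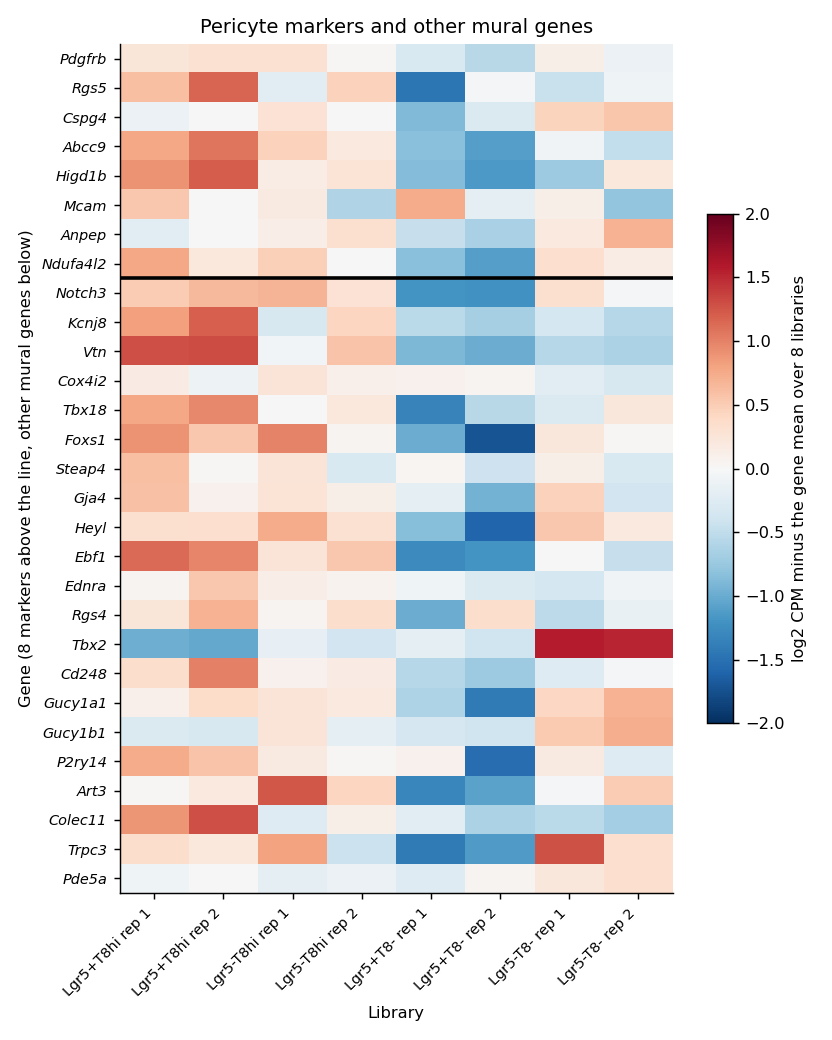
Log2 CPM of the 8 pericyte markers and the other tested mural genes, each centred on its mean over the 8 libraries; columns are libraries grouped by population and the colour scale is in log2 units. Abcc9, Vtn and Ebf1 are high in Lgr5+T8hi and low in Lgr5+T8-, and Tbx2 is high in Lgr5-T8-.

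Ligands and receptors through which vessels recruit mural cells formed a list of 13. Of these, 7 were higher and 1 lower in T8hi cells (median 0.9), against 9.13% and 5.52% of all tested genes. The lower one was Pdgfb, the ligand of Pdgfrb, at 93.9 ± 6.3 CPM in Lgr5+T8hi, 91.1 ± 16.9 among Lgr5-T8hi, 134 ± 8.68 among Lgr5+T8- and 124 ± 6.21 among Lgr5-T8- (SD, n = 2; -0.48 ± 0.07 on the log2 scale, adjusted p 0.000515, edgeR). So receptor and ligand transcripts differed in opposite directions on the mean of both Lgr5 classes. Among Lgr5- cells alone Pdgfrb was not called (0.15 ± 0.11, adjusted p 0.498, edgeR). Its Tspan8 call was also lost without the replicate block. Pdgfra, the sister receptor carried by fibroblasts, was higher by 0.87 ± 0.1 (adjusted p 0.000104, edgeR), Angpt1, a mural ligand of the endothelial receptor Tek, by 1.23 ± 0.16 (adjusted p 0.00031, edgeR), and S1pr3, a sphingosine 1-phosphate receptor, by 0.91 ± 0.11 (adjusted p 0.000367, edgeR).

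The next counts stand against 9.13% of all tested genes called higher in T8hi cells and 5.52% called lower. Of 10 tested family relatives of the markers, 3 were higher in T8hi cells: Rgs16 (1.31 ± 0.1), Enpep (1.22 ± 0.16) and Rgs3 (0.56 ± 0.12; SE, edgeR adjusted p 1.3e-05, 0.000366 and 0.00858). The closest relatives of the mitochondrial pair, Higd1a at -0.05 ± 0.08 and Ndufa4 at -0.09 ± 0.07, did not pass (adjusted p 0.73 and 0.449, edgeR). Of 11 targets of hypoxia-inducible factors, 3 were higher and 1 was lower, with a median of 0.06. Smooth-muscle contractile genes, which mural and mammary basal cells share, went the other way: 8 of 10 were lower in T8hi cells, with a median of -0.56. The smallest adjusted p-values among them were those of Actg2 (-1.31 ± 0.07), Myh11 (-0.83 ± 0.07) and Acta2 (-0.67 ± 0.07; adjusted p 1.13e-06 to 6.56e-05, edgeR). The 1 contractile-list gene that was higher was Des (0.91 ± 0.1, adjusted p 7.25e-05, edgeR), which encodes desmin, an intermediate filament protein of muscle and pericytes.

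Some markers of other cell types were also higher in T8hi cells, and their part in the results was not tested. Of all tested genes, 9.13% were called higher and 5.52% lower for Tspan8. In either direction, 4579 of the 16526 had an unadjusted p under 0.05. Of 12 endothelial markers, 5 were higher in T8hi cells and none was lower (edgeR, with 11 higher at an unadjusted p under 0.05), and their summed level was 647 to 723 CPM in Lgr5+T8hi, 220 to 408 among Lgr5-T8hi, 161 to 215 among Lgr5+T8- and 277 to 293 among Lgr5-T8-. Of 10 fibroblast markers, 8 were higher, with sums of 1040 to 1280, 740 to 879, 363 to 414 and 576 to 749 CPM in the same order. Summed immune markers were at 33.2 to 44.6, 22.4 to 22.9, 15.2 to 17.4 and 18.7 to 23.4 CPM, with 4 of 7 tested higher. Summed Schwann cell markers were at 218 to 248, 201 to 228, 163 to 192 and 176 to 190 CPM, with 2 of 6 higher. Luminal markers, 7 of 10 higher, summed to 1330 to 1740, 1120 to 1570, 910 to 1530 and 799 to 989 CPM, with the lowest value in Lgr5-T8-. The 8 pericyte markers, with Mcam as the largest term, summed to 364 to 442, 281 to 377, 273 to 440 and 276 to 364 CPM, with no population apart from the rest. Both Lgr5+T8hi libraries had higher endothelial and fibroblast sums than the other 6, and both Lgr5+T8- libraries had lower ones. The other mural genes summed to 344 to 378, 280 to 348, 201 to 225 and 297 to 334 CPM in the same order, so that Lgr5+T8- was again lowest. No endothelial, fibroblast or mural gene of these lists was at 0 throughout a population.

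**Figure D5:**
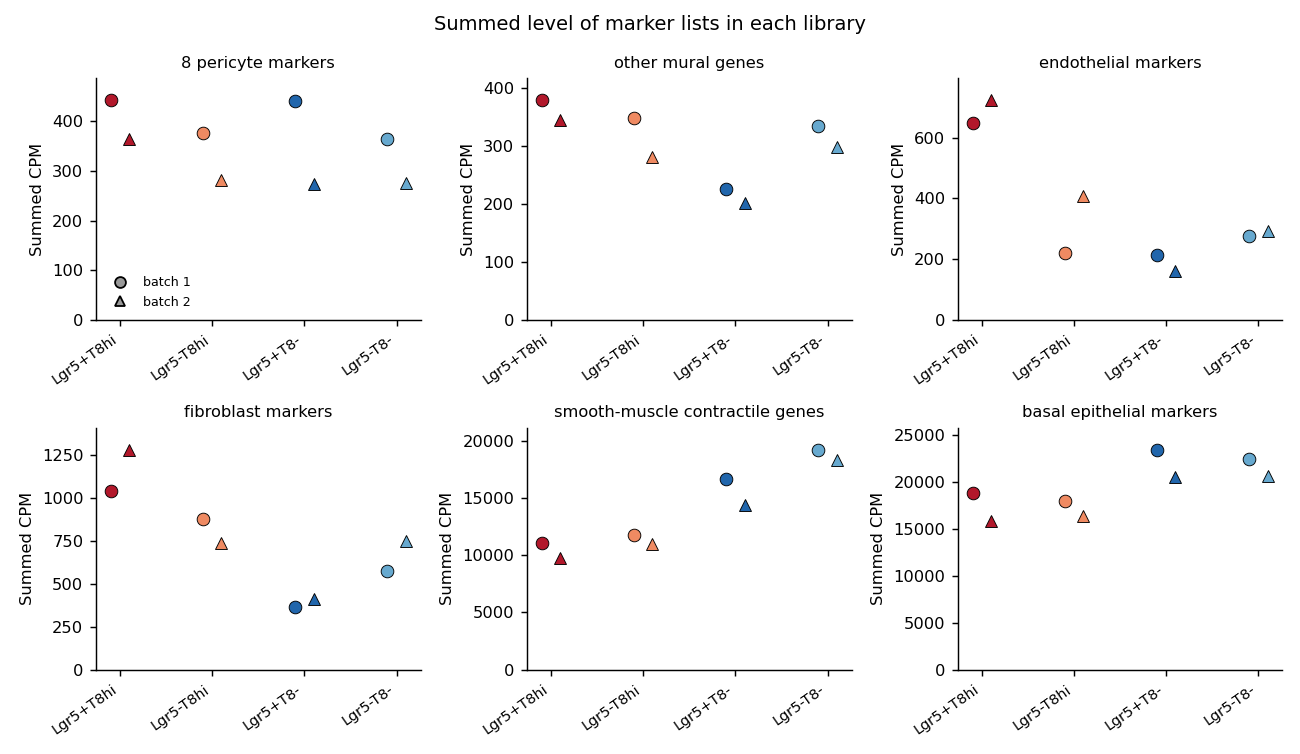
Summed CPM of the pericyte markers, the other mural genes and 4 further lists (endothelial, fibroblast, contractile and basal epithelial) in each library, 1 panel per list with its own axis from 0 and points marked by batch. Endothelial sums reach 647 to 723 CPM in Lgr5+T8hi against 161 to 215 CPM in Lgr5+T8-, while the basal epithelial sums are 15800 to 18800 and 20500 to 23400 CPM.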

How the data were processed

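Total RNA of 8 libraries was sequenced single-end, per the labels. The authors deposited raw read counts per Entrez gene, with gene lengths and no normalization. The submitters' processing notes list the build mm10 (GRCm38) and, without roles, the tools limma 3.24.14, edgeR 3.10.2, CASAVA 1.8.2 and featureCounts. The aligner and the strand setting are not given in the sources used here. Entrez identifiers were looked up in RefSeq's GRCm38.p6 gene table for symbols and positions, and 25260 had an entry.

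The main test was edgeR's two-sided quasi-likelihood F-test (robust, in R 4.3.3 with edgeR 4.0.16) on the counts of all 8 libraries, with TMM normalization, a filterByExpr minimum count of 10, and population plus batch as terms, leaving 3 residual degrees of freedom. P-values were adjusted by Benjamini and Hochberg's method across the 16526 tested genes, for each of 9 comparisons. The script was tested on simulated data. The batch equals the replicate number in the labels and pairs the libraries: deviations of same-numbered libraries correlated at r 0.415 to 0.55 over the pairs of populations. Replicates differed beyond sampling noise, with a chi-square per degree of freedom of 36.8 to 58.4.

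The pericyte markers, the other gene lists and the motifs were chosen with earlier results of these data known. The pericyte markers are always named. From each other list up to 4 genes with the smallest adjusted p for Tspan8 could be named, with Kcnj8, Pdgfb, Pdgfra, Higd1a, Ndufa4 and Enpep as partners or relatives. Likeness used genes of at least 1 mean CPM and a prior count of 2, and not every gene it ranked is reported here. Alternatives were no block, RLE normalization, library totals, no count filter, DESeq2 1.42.0, limma-voom (limma 3.58.1), a filter of 1 CPM or more in 4 libraries and leaving out each library, which leaves a population with 1 library, assumed to vary like the others.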

Additional observations from a re-analysis of the deposited data

Results flagged for a closer look

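The following results have a Tspan8 difference that differed between Lgr5+ and Lgr5- cells by edgeR's interaction test. Each value is the log2 difference among Lgr5+ cells minus that among Lgr5- cells. The test called 2.18% of tested genes with a positive value and 0.363% with a negative one. Without the replicate block edgeR called 1 gene of all those tested, and 0 of the pericyte markers. For genes other than the pericyte markers, the effect of leaving out a library was not examined. Among the pericyte markers this was 1.31 for Abcc9 (1.92 among Lgr5+ and 0.6 among Lgr5- cells) and 1.53 for Ndufa4l2 (1.52 and -0.01). Among the other mural genes it was 1.45 for Notch3 (1.79 and 0.34, adjusted p 0.00379, edgeR), 1.38 for Vtn (2.28 and 0.9, adjusted p 0.0427) and 1.71 for Ebf1 (2.33 and 0.62, adjusted p 0.0111). Tbx2 had 1.11, being lower in T8hi cells of both classes but by less among Lgr5+ cells (-0.72 and -1.83, adjusted p 0.00599, edgeR). The value was 1.22 for S1pr3 (1.52 and 0.3, adjusted p 0.0198, edgeR), 1.25 for Rgs16 (1.94 and 0.68, adjusted p 0.00932), 1.76 for Enpep (2.1 and 0.35, adjusted p 0.0179) and 0.85 for Des (1.34 and 0.49, adjusted p 0.0427). The sign was the same in both batches for all 10 genes. They were picked by a test on these same batches, so the shared sign is no separate support.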

How the results depend on the processing

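Without the replicate block, the number of pericyte markers called by edgeR was 1 for Tspan8, 0 for Lgr5, 0 for the interaction, 2 for Lgr5+T8hi against Lgr5+T8-, 0 for Lgr5+T8hi against Lgr5-T8hi (1 at an unadjusted p under 0.05), 1 for Lgr5+T8- against Lgr5-T8-, 1 for Lgr5+T8hi against Lgr5-T8- and 0 for Lgr5-T8hi against Lgr5+T8- (6 at an unadjusted p under 0.05). Over all genes, and in the same order, the counts without the replicate block were 705, 219, 1, 512, 0 (1094 at an unadjusted p under 0.05), 208, 931 and 57, against 2421, 1502, 421, 1560, 552, 1464, 3287 and 710 with it, and for Lgr5-T8hi against Lgr5-T8- they were 147 and 1167.
The cause of these drops was not tested. For Lgr5-T8hi against Lgr5+T8-, 1261 of all tested genes had an unadjusted p under 0.05 without the block. Between Lgr5+T8hi and Lgr5-T8hi, DESeq2 and limma-voom each called 2 markers, adding Rgs5 to Mcam.

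Leaving out 1 library at a time, the markers called ranged from 4 to 5 for Tspan8, 2 to 3 for Lgr5, 0 to 2 for the interaction, 4 to 6 for Lgr5+T8hi against Lgr5+T8-, 0 to 2 for Lgr5+T8hi against Lgr5-T8hi, 2 to 6 for Lgr5+T8- against Lgr5-T8-, 2 to 5 for Lgr5+T8hi against Lgr5-T8- and 2 to 7 for Lgr5-T8hi against Lgr5+T8-, and stayed at 0 for Lgr5-T8hi against Lgr5-T8-. Over all genes the ranges were 1428 to 3374, 726 to 2618, 119 to 584, 627 to 2136, 43 to 943, 750 to 2354, 1554 to 4051 and 315 to 1102 in the same order, and 489 to 1943 for the last. Differences that had not passed the test changed sign: for Lgr5, Higd1b to 0.02 with limma-voom and to 0.05, 0.17 and 0.25 without Lgr5-T8hi replicate 1, Lgr5+T8- replicate 2 and Lgr5-T8- replicate 2, Abcc9 to 0.1 and 0.06 without Lgr5+T8hi replicate 1 and Lgr5-T8- replicate 1, and Rgs5 to -0.08 without Lgr5+T8- replicate 2. For Tspan8, Mcam went to -0.03 without Lgr5+T8hi replicate 2, Cspg4 to -0.02 and -0.04 without Lgr5-T8hi replicate 1 and Lgr5+T8- replicate 1, and Anpep to 0 without Lgr5+T8- replicate 2. The Mcam interaction went to 0.05 without Lgr5+T8hi replicate 1. Over the same fits these differences ranged up to 0.15 for Mcam and 0.26 for Anpep (Tspan8) and 0.35 for Rgs5 (Lgr5), and down to -0.2 for Abcc9 and -0.26 for Higd1b (Lgr5) and -0.31 for Mcam (interaction), with 0.25 the highest for Cspg4 (Tspan8). The Tspan8 calls of Pdgfrb, Rgs5, Abcc9 and Ndufa4l2 and the Lgr5 calls of Mcam and Anpep held in all 8 leave-one-out fits. RLE normalization, library totals and no count filter changed no call of a marker for Tspan8, Lgr5 or the interaction, and the filter of 1 CPM in 4 libraries removed Higd1b and with it 1 of the 5 Tspan8 calls. Depth limits Higd1b most, at 3 to 24 counts in a library.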
